A study of Caenorhabditis elegans with 12 samples.

Results

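The netrin guidance genes are *unc-6*, *unc-5* and *unc-40*, which encode a secreted guidance cue of *C. elegans* and its receptors. They were chosen by name for what their products do, with earlier results of these data known, and are 3 of the 45410 genes counted in each library. All 3 passed the filter on low counts in both experiments. The libraries were made from RNA of whole mid-embryos, to learn how loss or alteration of the histone H3 lysine 4 (H3K4) methyltransferase SET-2 affects gene expression at the stage when axons grow out. The first experiment held 3 libraries of *set-2(tm1630)*, which carries a large 5′ deletion that takes away the start codon, and 3 of wild type (N2). The second, run separately, held 3 libraries of *set-2(zr2012)*, which changes 1 amino acid of the SET domain, and 3 of its own wild type. Each mutant is 1 allele in 1 strain background and was compared only with wild-type libraries from the same experiment. For all 4 groups, young adults grown at 20°C were bleached and the eggs were left for 4 h before RNA extraction, and the study describes replicates as independent preparations, with mutant and wild type handled in parallel.

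UNC-6/netrin is related to laminin and is laid down mainly on the ventral side of the embryo, so that growing axons and migrating cells meet a dorsoventral gradient of it. UNC-40, the homologue of the vertebrate receptor DCC, draws axons towards the source, whereas UNC-5, alone or together with UNC-40, turns them away from it. Ventrally directed axons therefore depend chiefly on UNC-40, and dorsally directed axons need UNC-5 as well. In the RefSeq gene table for assembly WBcel235, *unc-6* lies on chromosome X between *F41C6.7* and *F14B8.4*, *unc-5* on chromosome IV between *B0273.1* and *fem-1*, and *unc-40* on chromosome I. Small non-coding RNA genes overlap *unc-6* (5 genes) and, together with piRNA genes, *unc-5* (103 genes, of which 81 were among the genes counted). Those counted summed to at most 105 counts per library at *unc-6* and 268 at *unc-5*. The 1 gene that overlaps *unc-40* was not among the genes counted. Whether counting used strand is not given in the sources used here, so reads from overlapping genes could not be separated.

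Total counts ranged over 14651380-34212722 in *set-2(tm1630)* libraries and 25370532-53080992 in their wild type, and over 23856585-32222609 in *set-2(zr2012)* libraries and 21731533-42425059 in theirs. The lowest count of a netrin gene in any library was 604, for which an exact Poisson 95% interval runs over 557-654. *set-2* itself had 116, 12 and 97 counts in libraries labelled *set-2(tm1630)*, against 1, 11 and 44 in wild type, and 12, 13 and 10 counts in those labelled *set-2(zr2012)*, against 9, 13 and 17. These low counts do not check the labels, and the directions below rest on the labels as deposited. Wild-type replicates of the first experiment spread widely, and replicate 3 of the second wild type stood apart from the other 2 (Pearson correlation of log2 CPM across genes 0.944 with either, against 0.992 between them). Levels are given below as CPM, counts scaled to library size with TMM factors (normalization against the bulk of genes) within an experiment.

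In *set-2(tm1630)* embryos the ligand gene and 1 receptor gene were downregulated. *unc-6* was 78.6% lower on the fitted scale and *unc-5* 62.4% lower, whereas *unc-40* gave no call and its interval left room for change in either direction. Levels of RNA from whole embryos do not tell fewer expressing cells from less RNA per cell.

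*unc-6*, the netrin gene, stood at 24.1, 40.7 and 32.6 CPM in the *set-2(tm1630)* libraries (replicates 1, 2 and 3), against 126, 234 and 94.4 CPM in wild type. No mutant library reached the lowest wild-type library, a separation in this direction that 24.6% of the genes tested showed. The mean was 32.5 ± 8.33 CPM in the mutant and 151 ± 72.97 CPM in wild type (SD, n = 3 each). The log2 fold change was -2.22 (standard error 0.42, 95% interval -3.18 to -1.26), with an adjusted p of 0.0103 by edgeR quasi-likelihood testing (Benjamini-Hochberg over 16332 genes). Only 5.14% of the genes tested had a lower or equal log2 fold change. The call was lost without mutant replicate 1 (-2.01, adjusted p = 0.0650) or without mutant replicate 3 (-2.20, adjusted p = 0.0565). Without any 1 mutant library, 747 to 938 genes were called in all, against 4961 with every library.

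*unc-5*, the gene of the repulsion receptor, stood at 79.8, 80.5 and 87.9 CPM in the *set-2(tm1630)* libraries, against 142, 355 and 164 CPM in wild type. The groups did not overlap, and the mutant libraries lay close together while wild-type replicate 2 was far above the others. Means were 82.7 ± 4.46 CPM in the mutant and 220.2 ± 117 CPM in wild type (SD, n = 3 each). The log2 fold change was -1.41 (standard error 0.40, 95% interval -2.34 to -0.49, adjusted p = 0.0332 by edgeR quasi-likelihood testing). This call was the less stable one. It was lost without wild-type replicate 2 (-0.90, adjusted p = 0.0624), and without mutant replicate 1 (-1.34, 0.139), 2 (-1.35, 0.120) or 3 (-1.43, 0.115), the second value of each pair being an adjusted p.

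*unc-40*, the DCC receptor gene, stood at 201, 206 and 186 CPM in the *set-2(tm1630)* libraries, against 131, 393 and 263 CPM in wild type. Every mutant library lay within the range of the wild-type libraries. The log2 fold change was -0.41 (standard error 0.42, adjusted p = 0.472 by edgeR quasi-likelihood testing), and its 95% interval of -1.36 to 0.55 covers a mutant level of 0.388 to 1.46 times wild type. Without wild-type replicate 2, the highest library, the log2 fold change was -0.0049, and without wild-type replicate 1, the lowest, it was -0.74 (adjusted p = 0.0740).

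Of the 3 genes, 2 were thus downregulated in *set-2(tm1630)*. In the same comparison 30.4% of all genes tested were called in either direction and 16% as downregulated, and the median log2 fold change of all genes was -0.21. Marker genes of several tissues, neurons included, and of the early embryo moved in this comparison too. The summed level of 10 neuronal markers ranged over 557-615 CPM in the mutant and 742-1345 CPM in wild type, and 4 of the 7 tested were downregulated (3, *unc-31*, *unc-10* and *egl-3*, were listed at 0 in all libraries). Sums ranged over 358-471 CPM in the mutant and 673-2316 CPM in wild type for 8 epidermal markers (2 of 5 tested downregulated), and over 1841-1924 CPM and 3101-5188 CPM for 8 markers of body wall muscle (3 of 6 downregulated). Of these, *elt-1*, *elt-3* and *sqt-3* (epidermis) and *unc-15* (muscle) were listed at 0 in all libraries. The sum of 7 intestinal markers ranged over 632-661 CPM in the mutant and 651-1835 CPM in wild type (2 of 6 tested downregulated and 1 upregulated, with *elt-7* listed at 0 throughout). Conversely, 11 genes of maternal and early embryonic RNA summed to 824-1110 CPM in the mutant and 23.5-116 CPM in wild type, with 8 of the 9 tested upregulated, while *pie-1* and *mex-3* were listed at 0 throughout. The part of these shifts in the results for *unc-6* and *unc-5* was not tested.

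**Figure D1:**
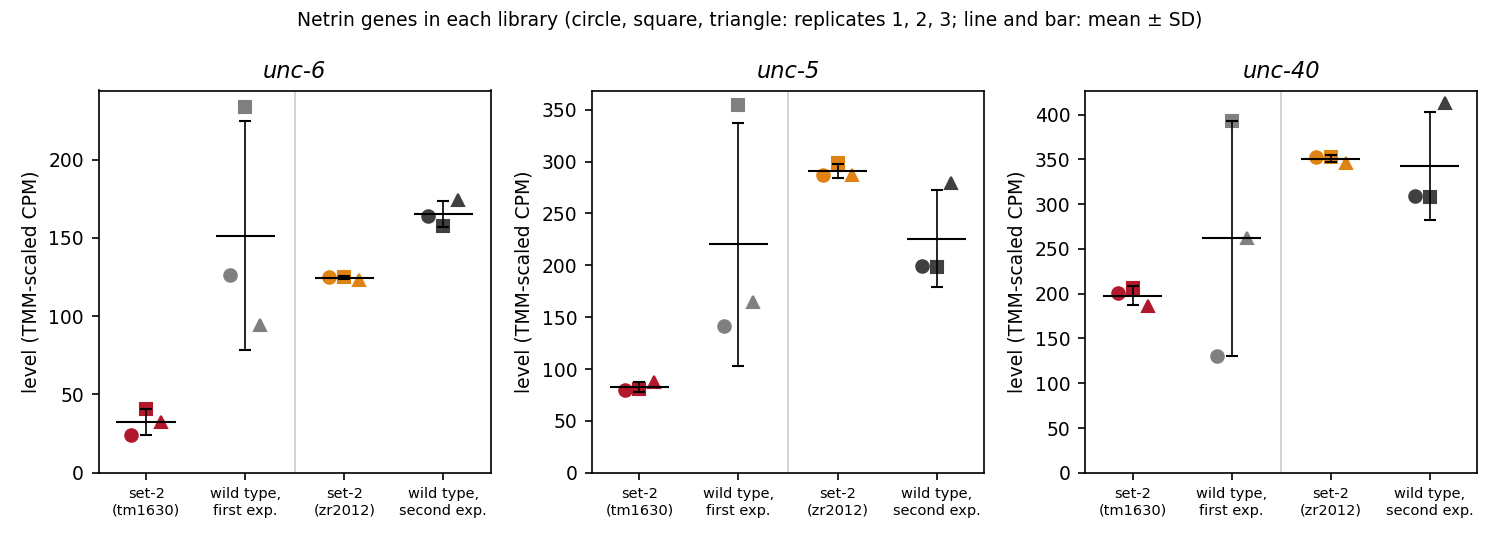
Level of *unc-6*, *unc-5* and *unc-40* in each of the 12 libraries, in TMM-scaled CPM, with 1 panel per gene and each mutant left of its own wild type; symbols are replicates and the line and bar are the mean and SD (n = 3). For *unc-6* and *unc-5* the *set-2(tm1630)* libraries sit at 24.1-40.7 and 79.8-87.9 CPM, below all wild-type libraries of that experiment, whereas for *unc-40* they sit inside the wild-type range.

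In *set-2(zr2012)* embryos the changes were small. *unc-6* was 24.7% lower, *unc-5* lay above wild type in all libraries without passing the test, and the level of *unc-40* differed little. Of the 3 genes, 1 was downregulated, where 10.4% of 16892 genes tested were called in either direction, 4.74% were called as downregulated, and the median log2 fold change of all genes was -0.08.

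*unc-6* stood at 125, 125.2 and 123 CPM in the *set-2(zr2012)* libraries, against 164, 158 and 174 CPM in wild type. The groups did not overlap, and 18.1% of all genes tested had all mutant libraries below all wild-type libraries. Means were 124 ± 0.991 CPM in the mutant and 165 ± 8.302 CPM in wild type (SD, n = 3 each). The log2 fold change was -0.41 (standard error 0.088, 95% interval -0.62 to -0.20, adjusted p = 0.0364 by edgeR quasi-likelihood testing). The size was stable and the call was not. With 1 library left out, the log2 fold change ranged over -0.45 to -0.37. The call remained only without wild-type replicate 3 (adjusted p = 0.000244), in a fit that called 10468 genes in all. It was lost without wild-type replicate 1 (adjusted p = 0.118) or 2 (0.115) and without mutant replicate 1 (0.159), 2 (0.142) or 3 (0.177), with 29 to 154 genes called in all in these 5 fits. It was also lost with no filter on low counts (-0.44, adjusted p = 0.0652) and in 1 fit over all 12 libraries (-0.43, adjusted p = 0.538).

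*unc-5* stood at 287, 299 and 287 CPM in the *set-2(zr2012)* libraries, against 199.8, 198 and 279.7 CPM in wild type. All mutant libraries lay above all wild-type libraries, as for 18.9% of the genes tested, but wild-type replicate 3 came close to them. The log2 fold change was 0.36 (standard error 0.15, 95% interval -0.00 to 0.73) with an adjusted p of 0.169 by edgeR quasi-likelihood testing. Without wild-type replicate 3 it was 0.55 and the adjusted p was 1.30e-05, in a fit that called 10468 genes in all, against 1765 with every library.

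*unc-40* stood at 353, 353 and 346 CPM in the *set-2(zr2012)* libraries, against 309, 308 and 413 CPM in wild type. The mutant libraries fell between the lower pair of wild-type libraries and the high replicate 3. The log2 fold change was 0.03 (standard error 0.14, adjusted p = 0.889 by edgeR quasi-likelihood testing), and the 95% interval of -0.30 to 0.36 covers a mutant level of 0.814 to 1.28 times wild type. Without wild-type replicate 3 the value was 0.19 and passed the threshold (adjusted p = 0.0156) in the same fit with 10468 calls, and without wild-type replicate 1 or 2 its sign turned (-0.043 and -0.045).

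Replicate 3 of this wild type also differed in its marker genes. The 11 maternal and early embryonic genes summed to 103-129.4 CPM in the *set-2(zr2012)* libraries, against 84.1, 93.1 and 585 CPM in wild-type replicates 1, 2 and 3. All 9 tested were lower in the mutant, with a median log2 fold change of -1.33. None of the 9 passed the threshold, by edgeR or by DESeq2's Wald test, and 0 had an unadjusted p under 0.05. Neuronal markers summed to 1013-1160 CPM in the mutant and 907-1291 CPM in wild type with 0 of 7 called, intestinal markers to 1029-1206 CPM and 1042-1142 CPM with 0 of 6 called, and muscle markers to 6944-8140 CPM and 4955-7598 CPM with 0 of 6 called. Of each of these 3 lists, 1 gene was higher at an unadjusted p under 0.05, and DESeq2's Wald test called 1 neuronal and 1 muscle gene as higher. Epidermal markers summed to 1088-1232 CPM in the mutant and 1155-1533 CPM in wild type, and 2 of 5 tested were downregulated. Wild-type replicate 3 set 1 end of each of these wild-type ranges. Its neuronal sum was 907 CPM, against 1291 and 1284 CPM in replicates 1 and 2, and its muscle sum 4955 CPM, against 7324 and 7598 CPM. Its epidermal sum was 1533 CPM, against 1187 and 1155 CPM, and its intestinal sum 1142 CPM, against 1042 and 1054 CPM. The part of these marker differences in the results for the netrin genes was not tested.

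Whether the alleles differed was tested directly, as the change in *set-2(tm1630)* minus the change in *set-2(zr2012)*, each against its own wild type, over all 12 libraries. *unc-6* and *unc-5* differed between the alleles and *unc-40* was not shown to. The difference was -1.80 on the log2 scale for *unc-6* (standard error 0.44, 95% interval -2.74 to -0.85, adjusted p = 0.0135 by edgeR quasi-likelihood testing). For *unc-5* it was -1.77 (standard error 0.45, 95% interval -2.74 to -0.80, adjusted p = 0.0162). These are 2 of 3 genes, where 23.4% of the 17903 genes tested differed. Both calls held without any 1 of the 12 libraries, with values of -2.04 to -1.33 for *unc-6* and -2.01 to -1.24 for *unc-5*. For *unc-40* the difference was -0.43 (95% interval -1.43 to 0.57, adjusted p = 0.519). Allele and experiment cannot be told apart in these differences, beyond the wild type that each experiment had.

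**Figure D2:**
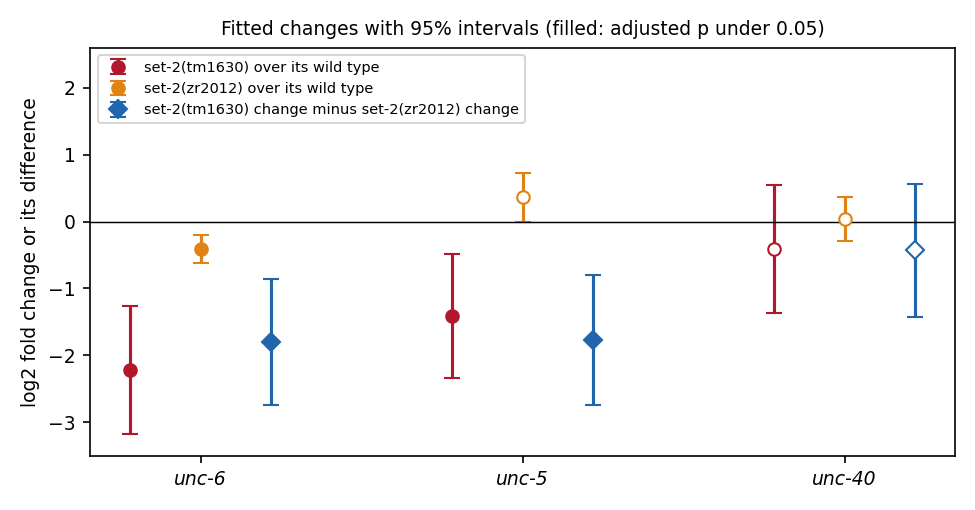
Fitted log2 fold change of each netrin gene in *set-2(tm1630)* and in *set-2(zr2012)*, each over its own wild type, and the difference between these changes, with 95% intervals; filled symbols mark an adjusted p under 0.05. The intervals of the difference lie below 0 for *unc-6* (-1.80) and *unc-5* (-1.77) and span 0 for *unc-40* (-0.43).

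With all 12 libraries scaled together, the levels of the 4 groups can be set side by side, as a description with no test. *unc-6* averaged 33.97 ± 8.68 CPM in *set-2(tm1630)* and 160 ± 77.5 CPM in its wild type, and 117 ± 1.41 CPM in *set-2(zr2012)* and 159 ± 5.58 CPM in its wild type (SD, n = 3 each). The order was thus lowest in *set-2(tm1630)*, then *set-2(zr2012)*, then the wild-type groups. The first wild type spread over 100-247 CPM, a range that holds the libraries of the other wild type and of *set-2(zr2012)*. *unc-5* averaged 86.6 ± 4.82 CPM in *set-2(tm1630)* and 232 ± 125 CPM in its wild type, and 274 ± 8.08 CPM in *set-2(zr2012)* and 216 ± 41.1 CPM in its wild type. It was lowest in *set-2(tm1630)*. The first wild type, at 147-375 CPM, spanned the second wild type and *set-2(zr2012)*, whose libraries (270-284 CPM) lay above those of their own wild type (192-264 CPM). *unc-40* averaged 207 ± 10.8 CPM in *set-2(tm1630)* and 277 ± 140 CPM in its wild type, and 331 ± 4.98 CPM in *set-2(zr2012)* and 329 ± 52.5 CPM in its wild type. The first wild type, at 136-416 CPM, spanned the libraries of all other groups.

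The balance of the ligand and its receptors was read as the ratio of their counts within a library, which needs no scaling between libraries. Only its difference between groups is interpretable, because transcript length was not corrected. The ratios are a description, since no comparison of 3 libraries with 3 could pass the threshold and the difference between alleles was not tested for them. In every library of both mutants, *unc-6* had a smaller ratio to each receptor gene than in any wild-type library of that experiment. The ratio of *unc-5* to *unc-40* was below all wild-type libraries in *set-2(tm1630)* and above all of them in *set-2(zr2012)*.

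The *unc-5* to *unc-40* ratio was 0.397, 0.390 and 0.473 in the *set-2(tm1630)* libraries, against 1.08, 0.902 and 0.625 in wild type. On the log2 scale it averaged -1.26 ± 0.154 in the mutant and -0.24 ± 0.404 in wild type, a difference of -1.02. In the *set-2(zr2012)* libraries it was 0.812, 0.847 and 0.829, against 0.647, 0.644 and 0.678 in wild type. The log2 means were -0.27 ± 0.0306 in the mutant and -0.61 ± 0.0408 in wild type, a difference of 0.34. Neither pair of groups overlapped, and here wild-type replicate 3 of the second experiment stood near the other 2.

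The *unc-6* to *unc-40* ratio was 0.120, 0.197 and 0.175 in the *set-2(tm1630)* libraries, against 0.966, 0.594 and 0.359 in wild type, a log2 difference of -1.88. In the *set-2(zr2012)* libraries it was 0.354, 0.355 and 0.356, against 0.532, 0.513 and 0.422 in wild type, a log2 difference of -0.45. The spread of the *set-2(zr2012)* libraries in this ratio was very narrow.

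The *unc-6* to *unc-5* ratio was 0.302, 0.506 and 0.371 in the *set-2(tm1630)* libraries, against 0.891, 0.659 and 0.575 in wild type, a log2 difference of -0.86. In the *set-2(zr2012)* libraries it was 0.436, 0.419 and 0.430, against 0.822, 0.796 and 0.623 in wild type, a log2 difference of -0.79. In both mutants all libraries had a ratio below those of wild type, although *unc-5* itself lay below wild type in *set-2(tm1630)* and above it in *set-2(zr2012)*. In all 6 ratio comparisons the mutant and wild-type libraries did not overlap, but the share of all gene pairs that separate so was not determined. Of single genes tested, 24.6% lay wholly below wild type in *set-2(tm1630)*, and 18.1% below and 18.9% above in *set-2(zr2012)*. The 3 ratios of an allele are built from the same 3 genes and are not independent of each other. Each of the 6 comparisons gave p = 0.1 in a two-sided exact permutation test (adjusted p = 0.1 over the 6), the smallest value that 3 libraries against 3 allow.

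**Figure D3:**
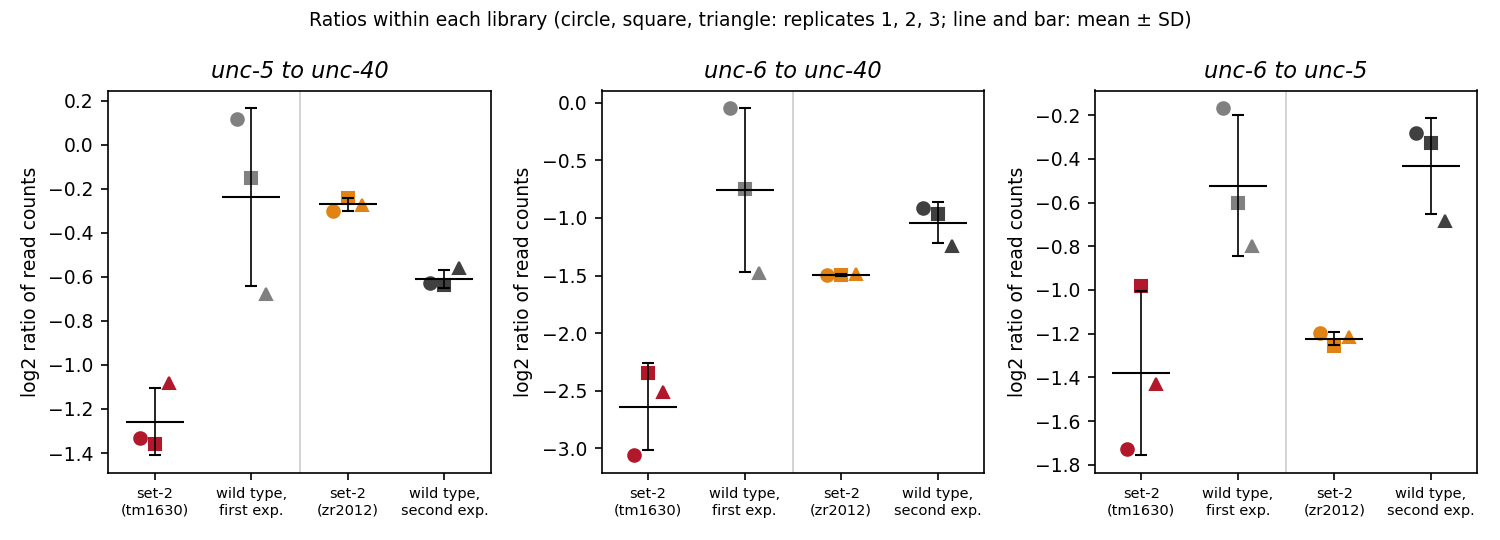
Log2 ratio of read counts of *unc-5* to *unc-40*, *unc-6* to *unc-40* and *unc-6* to *unc-5* in each library, with each mutant left of its own wild type; symbols are replicates and the line and bar are the mean and SD (n = 3). The *unc-5* to *unc-40* ratio averages -1.26 in *set-2(tm1630)* and -0.24 in its wild type, but -0.27 in *set-2(zr2012)* and -0.61 in its wild type.

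Across the 12 libraries, log2 CPM of *unc-6* and *unc-5* had a Pearson correlation of 0.886, that of *unc-5* and *unc-40* 0.791 and that of *unc-6* and *unc-40* 0.587. These correlations run over libraries that differ in genotype, experiment and maternal and early embryonic markers. The part of these differences in the correlations was not tested. The genes most like *unc-6* over the same libraries, among 9043 with a mean of at least 10 CPM, were *W01F3.1* (0.993), *T11G6.4* (0.993) and *Y73F8A.5* (0.992). Most like *unc-5* were *nkcc-1* (0.991), a cation-chloride cotransporter gene, *hum-6* (0.986), an unconventional myosin gene, and *nhr-203* (0.986), a nuclear hormone receptor gene. Most like *unc-40* were *nhr-230* (0.979), also a nuclear hormone receptor gene, a row listed only by a transcript identifier (0.971), and *sax-3* (0.959), the gene of the Robo receptor for Slit.

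Other genes that act with netrin signalling were taken as a list of 31, of which 25 passed the count filter. *madd-2* and *unc-33* were not analysed here, *max-1*, *wve-1* and *nck-1* were listed at 0 in all 12 libraries, and *unc-34* had too few counts. In *set-2(tm1630)*, 9 of the 25 were downregulated and 1 was upregulated, with a median log2 fold change of -0.76, beside 16% and 14.4% of all genes tested and their median of -0.21. In *set-2(zr2012)*, 1 was downregulated and 2 were upregulated, with a median of -0.04, beside 4.74% and 5.71% of all genes tested and their median of -0.08. These counts rested on single libraries. In *set-2(tm1630)*, 10 genes were downregulated without wild-type replicate 1, of which 6 were among the 9, and 8 without wild-type replicate 3, of which 7 were. There was 1 without wild-type replicate 2 or mutant replicate 3, and 0 without mutant replicate 1 or 2. The count of upregulated genes was 2 without wild-type replicate 3 and 0 without any 1 of the mutant replicates. DESeq2's size factors left 7 of the 9 downregulated, and a filter of 10 counts in every library left 6. Of the 9, *madd-4* had passed the count filter only through wild-type libraries. In *set-2(zr2012)* the list held 4 downregulated and 12 upregulated genes without wild-type replicate 3, where 10468 genes were called in all, and 0 in either direction without any other library, where 29 to 154 were.

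Among 4 genes on the ligand side, 2 were downregulated in *set-2(tm1630)*, beside 16% of all genes tested. *madd-4*, which encodes a second secreted guidance cue that acts with UNC-40, had only 2, 1 and 4 counts in the mutant, against 68, 98 and 30 in wild type (log2 fold change -4.61, standard error 0.83, adjusted p = 0.00925 by edgeR quasi-likelihood testing). It reached 10 counts only in wild type there, so it passed the filter only through those libraries. Little but a lower level could then be found, so the call is not support for a change. Its fitted size is also uncertain at such counts. In *set-2(zr2012)* it had 42, 53 and 42 counts against 39, 32 and 69. The other was *unc-129*, a TGF-β family ligand gene, which the naming rule left out and which was chosen after its value was seen (-1.08, adjusted p = 0.0448). That call was lost with DESeq2's size factors (adjusted p = 0.0550) and held in 1 of the 6 fits with a library left out. The syndecan gene *sdn-1* (-0.98, adjusted p = 0.0548) and the glypican gene *lon-2* (0.36, adjusted p = 0.321) did not pass.

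Of 3 receptor partners tested, 2 were downregulated in *set-2(tm1630)* and 1 in *set-2(zr2012)*, beside 16% and 4.74% of all genes tested. *eva-1*, a co-receptor gene that acts both with MADD-4 and UNC-40 and in Slit signalling through SAX-3, was the only gene of the list downregulated in both alleles. It stood at 100.1, 127 and 123 CPM in the *set-2(tm1630)* libraries, against 299.7, 550.1 and 175 CPM in wild type (log2 fold change -1.55, standard error 0.45, adjusted p = 0.0340). In *set-2(zr2012)* it stood at 255, 272 and 241 CPM, against 413, 420.4 and 418 CPM in wild type (-0.70, standard error 0.090, adjusted p = 0.0116, edgeR quasi-likelihood testing for both). Both pairs of groups were without overlap, as for 24.6% of all genes tested in this direction in *set-2(tm1630)* and 18.1% in *set-2(zr2012)*. The wild-type libraries of the second experiment agreed closely, replicate 3 included. The share of all genes downregulated in both alleles was not determined. With 1 library left out, the log2 fold change of *eva-1* ranged over -1.87 to -1.04 in *set-2(tm1630)*, where the call held in 2 of 6 fits, and over -0.73 to -0.65 in *set-2(zr2012)*, where it held in 1 of 6. The difference between the alleles for *eva-1* was -0.83 (adjusted p = 0.213). *vab-8*, which encodes a kinesin-related protein that acts on UNC-40 localization, had 13, 2 and 16 counts in *set-2(tm1630)*, against 58, 84 and 32 in wild type (-2.42, adjusted p = 0.0349). Its fitted size is uncertain at such counts, and its call held in 1 of the 6 fits with a library left out. In *set-2(zr2012)* its CPM lay above wild type in all libraries (0.78, unadjusted p = 0.0110, adjusted p = 0.0730 by edgeR quasi-likelihood testing). DESeq2's Wald test called 1 receptor partner as higher there.

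Among 13 cytoskeletal effectors tested, 2 were downregulated and 1 was upregulated in *set-2(tm1630)* (edgeR quasi-likelihood testing), beside 16% and 14.4% of all genes tested. No effector was called in *set-2(zr2012)* by that test or by DESeq2's Wald test, with 1 lower and 1 higher at an unadjusted p under 0.05. *unc-115*, which encodes an actin-binding protein of the abLIM family, stood at 93.1, 78.8 and 119 CPM in *set-2(tm1630)*, against 318, 577 and 260.0 CPM in wild type (log2 fold change -1.99, adjusted p = 0.0124). *wsp-1*, the WASP gene, stood at 5.94, 3.04 and 4.52 CPM in the mutant, against 15.7, 22.9 and 8.17 CPM in wild type (-1.78, adjusted p = 0.0272). *toca-2*, which encodes an F-BAR protein, went the other way, at 23.1, 21.3 and 22.7 CPM in the mutant, against 1.28, 5.74 and 6.45 CPM in wild type (2.31, adjusted p = 0.0211). With a library left out, the call of *wsp-1* held in 2 of 6 fits, and those of *unc-115* and *toca-2* each in 3 of 6. Of the 10 effectors not called there, the Rac genes *ced-10* (-0.06) and *mig-2* (-0.10) had adjusted p-values of 0.875 and 0.814. *unc-73* (-1.15) had an adjusted p of 0.0983 by the same test.

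Of 5 genes for trafficking and axon assembly, 3 were downregulated in *set-2(tm1630)* and 2 upregulated in *set-2(zr2012)*, beside 16% and 5.71% of all genes tested. *unc-44*, the ankyrin gene, was called in both alleles with opposite signs. It stood at 695, 607 and 717 CPM in *set-2(tm1630)*, against 932, 1931 and 2376 CPM in wild type (log2 fold change -1.38, adjusted p = 0.0487). In *set-2(zr2012)* it stood at 3011, 2943 and 3036 CPM, against 2208, 2269 and 2347 CPM in wild type (0.40, adjusted p = 0.0369, edgeR quasi-likelihood testing for both). The difference between the alleles passed its own test (-1.76, adjusted p = 0.0186). The share of all genes called in both alleles with opposite signs was not determined. Each call of *unc-44* held in 1 of the 6 fits with a library left out, and that in *set-2(tm1630)* was also lost with DESeq2's size factors (adjusted p = 0.0580) and with a filter of 10 counts in every library (adjusted p = 0.0563). *rpm-1*, the gene of a ubiquitin ligase that restrains guidance receptor signalling, had a log2 fold change of -2.23 in *set-2(tm1630)* (adjusted p = 0.0216). *unc-14*, whose product binds the kinase UNC-51, had one of -1.30 (adjusted p = 0.0296). The calls of *rpm-1* and *unc-14* each held in 2 of the 6 fits with a library left out. *enu-3*, which acts beside *unc-40* and *unc-5* in the outgrowth of motor axons, was upregulated in *set-2(zr2012)*, at 16.8, 18.7 and 15.98 CPM against 9.58, 8.78 and 8.09 CPM in wild type (0.96, adjusted p = 0.0172). That call held in 1 of the 6 fits with a library left out, the fit without wild-type replicate 3. It was lost in 1 fit over all 12 libraries (adjusted p = 0.161 by edgeR quasi-likelihood testing). In *set-2(tm1630)* the gene *enu-3* stood at 17.4, 14.5 and 16.9 CPM, against 5.91, 7.06 and 13.3 CPM in wild type, and did not pass (0.89, adjusted p = 0.114).

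The difference between the alleles was tested for all 25, and 6 passed, *madd-4*, *vab-8*, *unc-115*, *unc-44* and *rpm-1* lower and *toca-2* higher in *set-2(tm1630)* relative to *set-2(zr2012)*, where 23.4% of all genes tested differed. Their values ran over -4.79 to 2.76 on the log2 scale. The lowest was that of *madd-4*, whose size is uncertain at its low counts.

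**Figure D4:**
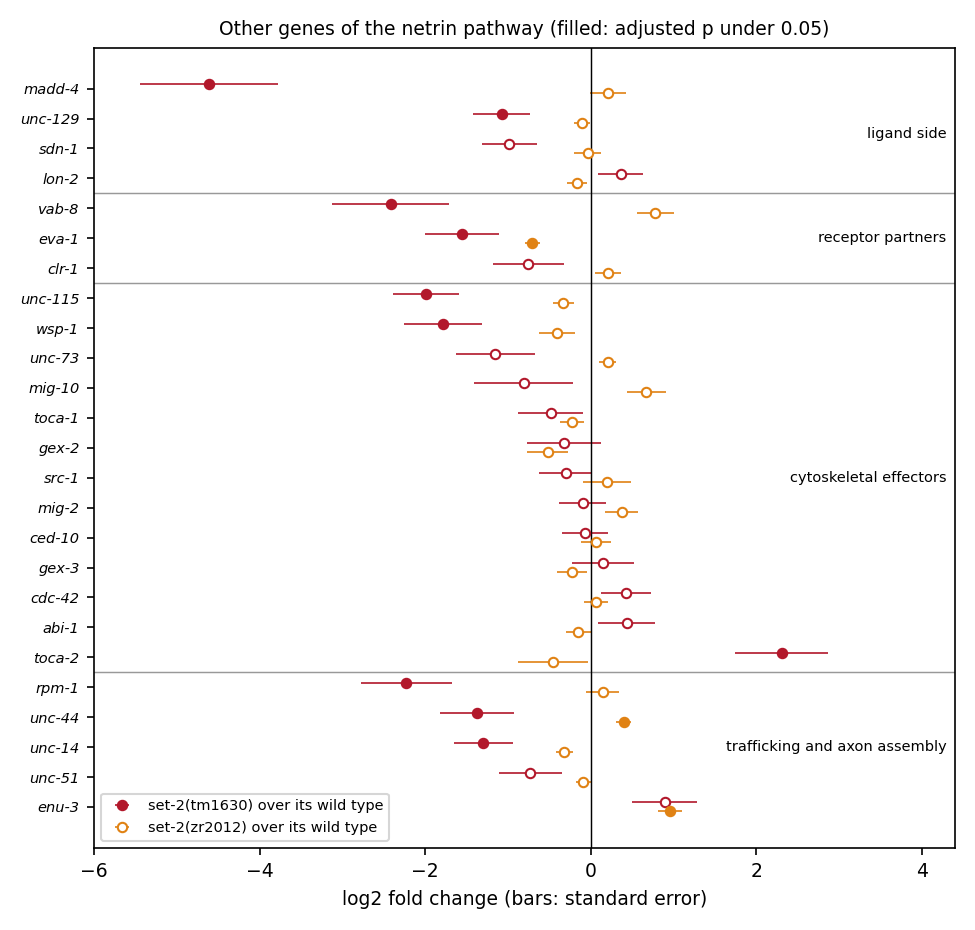
Log2 fold change with its standard error for 25 other genes of netrin signalling in either *set-2* mutant, each over its own wild type, arranged by role; filled symbols mark an adjusted p under 0.05. In *set-2(tm1630)* 9 filled symbols lie below 0 and 1 above, and in *set-2(zr2012)* 1 lies below (*eva-1*) and 2 above (*unc-44* and *enu-3*).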

How the data were processed

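RNA-seq counts of 12 mid-embryo libraries in 4 groups of 3 were used. The authors aligned reads to the WS220 genome (build ce10) with 2 mismatches allowed and deposited the reads per gene as raw integer counts, for 45410 genes per library, without normalization. The submitters' processing notes name Trimmomatic 0.36.0, HTSeq 0.9.1 and DESeq2 2.1.8.3. Counts are of reads without molecular identifiers, so the interval given covers counting error only. A row at 0 in all libraries was not read as absence of expression.

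In R 4.3.3, edgeR 4.0.16 was run on each experiment. Genes that reached 10 counts in 3 or more of the 6 libraries were kept, scaled by TMM and tested with the quasi-likelihood test (two-sided, genotype only). P-values were adjusted over all genes tested, with a threshold of 0.05. The difference between alleles was a contrast over all 12 libraries. Ratios were tested by exact permutation. Alternatives were DESeq2 1.42.0 (Wald test and size factors), other count filters, 1 read added to each count in the ratios, 1 fit over all 12 libraries, the replicate number as a block, and each library left out.

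The 3 genes and the lists of pathway and marker genes were chosen with earlier results of these data known. Of the pathway list, the text names for each allele up to 8 called genes per direction with the largest log2 fold change and those called in both alleles. Outside that rule it also names *unc-129* and the uncalled genes *sdn-1*, *lon-2*, *ced-10*, *mig-2* and *unc-73*. For each netrin gene it names the 3 most correlated genes. For *set-2(tm1630)* replicate 3 the title was followed, since its description repeats another library's name.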

Additional observations from a re-analysis of the deposited data

Results flagged for a closer look

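The changes of *unc-6* in the alleles differed by -1.80 on the log2 scale (*set-2(tm1630)* minus *set-2(zr2012)*, adjusted p = 0.0135 by edgeR quasi-likelihood testing). Those of *unc-5* differed by -1.77 (adjusted p = 0.0162), with the *set-2(tm1630)* libraries below and the *set-2(zr2012)* libraries above their wild type. Of all genes tested, 24.6% lay wholly below wild type in *set-2(tm1630)* and 18.9% wholly above it in *set-2(zr2012)*. The *unc-5* change in *set-2(zr2012)* was not called by itself (0.36, adjusted p = 0.169 by edgeR quasi-likelihood testing). Each allele was measured in 1 experiment, so allele and experiment cannot be told apart.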

How the results depend on the processing

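With 1 library left out, log2 fold changes in *set-2(tm1630)* ranged over -2.48 to -1.78 for *unc-6*, -1.66 to -0.90 for *unc-5* and -0.74 to -0.0049 for *unc-40*. In *set-2(zr2012)* they ranged over -0.45 to -0.37, 0.27 to 0.55 and -0.045 to 0.19. Counts of called genes ranged over 747 to 7857 in *set-2(tm1630)* and 29 to 10468 in *set-2(zr2012)* (10468 without wild-type replicate 3), against 4961 and 1765 with all libraries. Of the pathway list, 0 to 10 were downregulated and 0 to 2 upregulated in *set-2(tm1630)*, and 0 to 4 and 0 to 12 in *set-2(zr2012)*. The 6 ratio differences kept their sign in every such fit. In fits that left 2 libraries in a group, the spread was pooled over both groups.

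With all 12 libraries in 1 fit, 8124 genes were called in *set-2(tm1630)* (2 of the list upregulated) and 248 in *set-2(zr2012)* (0 of the list in either direction), and *unc-6* in *set-2(zr2012)* was not called (-0.43, adjusted p = 0.538). The DESeq2 Wald test called 3252 genes in *set-2(zr2012)*. With no filter on low counts, *unc-6* in *set-2(zr2012)* was not called (-0.44), *unc-40* there had the opposite sign (-0.0011), and 1 gene of the list was upregulated. DESeq2's size factors and the stricter filter left the calls of the 3 netrin genes as they were. The cause of these shifts was not tested.

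Replicate numbers are shared between groups in the labels, but same-numbered mutant and wild-type libraries did not deviate together (correlations of -0.27, -0.066 and -0.080 for *set-2(tm1630)* and 0.053, -0.21 and -0.22 for *set-2(zr2012)*). Among the mutant libraries, only *set-2(zr2012)* replicate 1 correlated best with the wild-type library of its own number. With the replicate number as a block, *unc-5* in *set-2(tm1630)* was -1.28 (adjusted p = 0.0734), *unc-6* in *set-2(zr2012)* -0.41 (0.171) and the *unc-5* difference between alleles -1.65 (0.0568). The block left 3470 genes called in *set-2(tm1630)* and 40 in *set-2(zr2012)*, with 3 of the list downregulated in the first and 0 in either direction in the second. The ratio differences with a block cannot give p below 0.25.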
